A study of Mus musculus with 8 samples.

Results

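The G1 cyclins and the kinases they activate are 8 genes, Ccnd1, Ccnd2, Ccnd3, Ccne1, Ccne2, Cdk2, Cdk4 and Cdk6. They were chosen by name, as D and E cyclins and their catalytic partners, and all 8 were found among the 38918 gene rows of the deposited table. Poly(A) RNA was sequenced from BMiFLT3 (15-3), a line of pro-B cells derived from a murine B-cell precursor leukaemia (BCP-ALL). The cells carried a retroviral construct for BFP, a blue fluorescent protein used as the control, or for Klf2, a zinc-finger transcription factor. The column names of both groups contain BFP, and what this says of the Klf2 construct is not given. The protocols name 2 library kits without assigning them to a group, so kit and construct cannot be told apart if the kits differed. The comparison asks which RNAs differ between cells overexpressing Klf2 and cells overexpressing BFP. Each group holds 4 sequencing lanes, which were summed as 1 library, so n = 1 library per group. Averaged over genes, the chi-square between lanes was 1.28 (BFP) and 1.26 (Klf2) per degree of freedom, above the 1 that sampling noise gives. On uniquely placed reads alone it was 1.03 in both. With 1 library on each side the differences have no replicate check, and p-values are left out. Intervals are at 95% and cover counting error only. For the 8 genes in the 2 libraries, the chi-square between lanes exceeded 1.5 per degree of freedom in 7 of 16 cases, with the highest values for Ccnd3 in Klf2 (4.77), Ccne1 in BFP (3.34) and Ccne2 in Klf2 (2.76), so intervals of these genes may be too narrow.

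D cyclins link growth signals to the cell cycle. They bind CDK4 or CDK6, and these complexes begin the phosphorylation of the retinoblastoma protein RB, which releases E2F transcription factors. E2F factors in turn switch on the genes of E cyclins, which bind CDK2 and complete the passage from G1 into S phase. The D cyclins are encoded by separate genes with different tissue use, and cyclin D3 is the one known to be needed for the expansion of early B-cell precursors, with cyclin D2 prominent in mature B cells.

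Exon reads summed to 30133978 in the BFP library and 30835450 in the Klf2 library, between 7506567 and 7741626 per lane. Klf2 itself was 11.1-fold higher in its own library (9.93 to 12.6), with 3364 against 314 reads. Fold and ratio mean the Klf2 over the BFP library in CPM, exon reads scaled to library size with TMM factors, which set the bulk of genes to a ratio near 1. Of 15 B-lineage progenitor markers in the table, 12 reached 1 CPM, with a summed level of 4841 CPM in BFP and 5182 CPM in Klf2. Of these 12, 4 had an interval of the ratio above 1 and 7 below, with a median difference of -0.08 in log2(CPM + 1). Rag1, Rag2 and Dntt, of V(D)J recombination, genes for which pro-B cells are known, held at most 9 reads in either library. Markers of T cells summed to 11.4 and 21.4 CPM, with Cd3e, Cd4, Cd8a and Bcl11b at 0 reads. The 3 that reached 1 CPM, Lat, Trac and Zap70, all had an interval above 1. Lat was past the 2-fold rule given below, with 110 BFP reads and 254 Klf2 reads. Trac went from 123 to 208 reads, a ratio of 1.76 (1.40 to 2.22). Zap70 went from 109 to 162 reads, a ratio of 1.55 (1.21 to 1.99). Those of myeloid cells summed to 12.8 and 10.8 CPM, with S100a8, S100a9 and Ly6g at 0, and none of the erythroid or stromal markers reached 1 CPM, with sums of at most 0.708 CPM. Hba-a1 and Alas2 of the first list and Pdgfra, Vcam1 and Cxcl12 of the second were at 0. The part of the T-cell transcripts in the results was not tested.

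All 8 genes were expressed in both libraries. Of the 8, Ccnd3, Ccne1 and Ccne2 were at least 2-fold higher in the Klf2 library with an interval above 1, and none was 2-fold lower. The rule was applied to the 10850 genes that reached 1 CPM in a library, of which 2.45% were 2-fold higher and 5.67% were 2-fold lower in this way. The other 5 genes lay between 0.920 and 1.18. An interval above 1, at any fold, was found for 7 of the 8 genes against 37.1% of all genes, and an interval below 1 for none of the 8 against 37.3%. That split depends on the scaling: it was 5 above and 1 below with total exon reads, and 5 above and 2 below when the most highly expressed genes were set to a median ratio of 1. The background is also unlike in depth, since an interval narrows with more reads. It includes genes down to 1 CPM, while the lowest of the 8, Ccnd1, was at 29.7 CPM in Klf2. In the order of ratios over all measured genes, Ccne2 stood at place 165, Ccnd3 at 173 and Ccne1 at 213. In bulk RNA, more cells at one point of the cycle and more RNA of a gene per cell cannot be told apart.

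**Figure D1:**
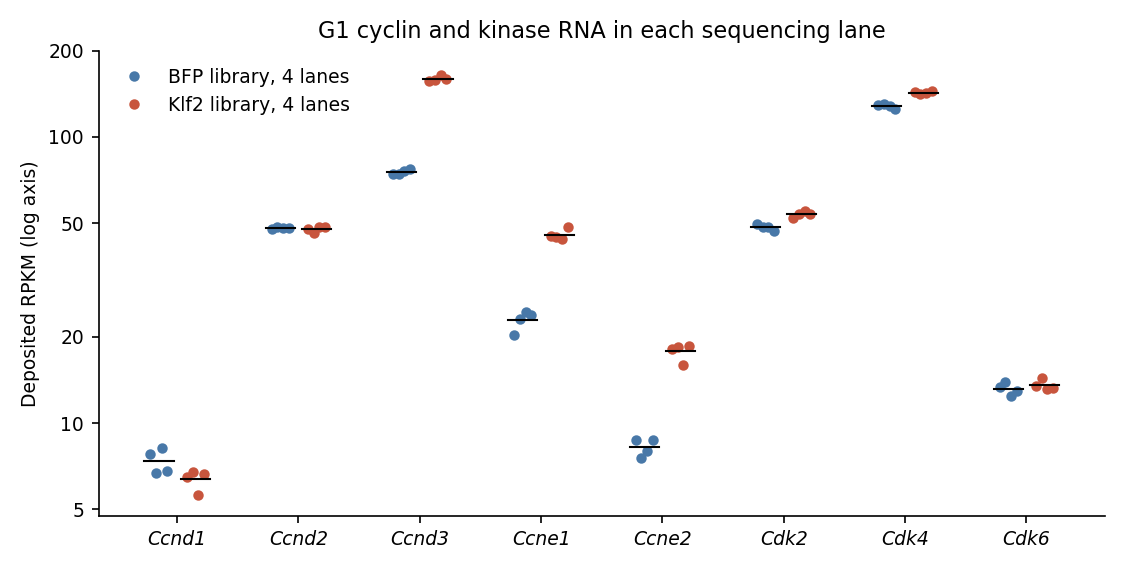
Deposited RPKM (log axis) of the 8 genes in each of the 4 lanes of the BFP and Klf2 libraries, with black bars at the mean of the lanes. The lanes of Ccnd3, Ccne1, Ccne2, Cdk2 and Cdk4 do not overlap between the libraries, while those of Ccnd1, Ccnd2 and Cdk6 do.

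Ccnd3, the cyclin D3 gene, lies on chromosome 17, 47505051 to 47599691 (mm10), and its row covers 46 exons of 20 annotated transcripts. Its deposited RPKM, exon reads per exon length and library size, was 74.0, 74.3, 76.0 and 77.5 in lanes 1, 2, 3 and 4 of BFP. In the same lanes of Klf2 it was 156.6, 157.7, 164.9 and 159.2. Every Klf2 lane lay above 2 times every BFP lane, though the lanes of a library are repeat readings of 1 preparation. Summed, 35660 against 16498 reads gave 1193 against 531 CPM and a ratio of 2.25 (2.21 to 2.29). Of the D cyclins, only Ccnd3 passed the rule on exon reads.

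Ccnd2, which encodes cyclin D2 (chromosome 6, 127125779 to 127151048), was at nearly the same level in both libraries. In RPKM its BFP lanes ran from 47.5 to 48.4 and its Klf2 lanes from 45.99 to 48.3, and these ranges overlap. The ratio was 1.06 (1.03 to 1.09) from 9849 against 9710 reads. Ccnd1, which encodes cyclin D1 (chromosome 7, 144929931 to 144939869), was the lowest of the 8 genes per length in both libraries. It was between 6.70 and 8.15 RPKM in BFP and between 5.62 and 6.76 RPKM in Klf2, again with overlapping lanes. Its ratio was 0.920 and its interval, 0.840 to 1.01, included 1.

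Both E cyclin genes were higher in the Klf2 library. Ccne1, the cyclin E1 gene (chromosome 7, 38097984 to 38107534), was at 20.4, 23.1, 24.5 and 23.8 RPKM in BFP lanes 1 to 4 and at 45.1, 44.5, 44.1 and 48.6 RPKM in the Klf2 lanes. Its ratio was 2.11 (2.01 to 2.23) from 4408 against 2169 reads, all of them uniquely placed. Ccne1 lay just past the 2-fold limit, and with scaling to the total exon reads its ratio was 1.99. Ccne2, the cyclin E2 gene (chromosome 4, 11191351 to 11204779), was at 8.72, 7.54, 7.98 and 8.73 RPKM in BFP and at 18.2, 18.5, 15.9 and 18.6 RPKM in Klf2. The lowest Klf2 lane stood well above the highest BFP lane. Its ratio was 2.29 (2.13 to 2.47) from 2258 against 1024 reads.

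The kinase genes were at most 1.18-fold higher in the Klf2 library. Cdk4 (chromosome 10, 127063534 to 127067920), a partner of the D cyclins, ran from 124.8 to 131 RPKM over the BFP lanes and from 141 to 144 RPKM over the Klf2 lanes, without overlap, for a ratio of 1.18 (1.16 to 1.21). Cdk6 (chromosome 5, 3343893 to 3523218), the alternative partner, was between 12.4 and 13.9 RPKM in BFP and between 13.2 and 14.4 RPKM in Klf2, with overlapping lanes and a ratio of 1.10 (1.03 to 1.17). Cdk2 (chromosome 10, 128697939 to 128705051) is the partner of the E cyclins. It was between 46.8 and 49.5 RPKM in BFP and between 52.1 and 55.1 RPKM in Klf2, without overlap. Its ratio was 1.18 (1.13 to 1.23). How often lanes separate in this way over all genes was not counted. Ratios over all genes also shifted with expression level. With genes cut by mean CPM into 5 groups of equal size, the highest, which holds Cdk2, Cdk4, Ccnd2 and Ccnd3, had a median ratio of 1.12. In the next group, which holds Ccne1, Ccne2 and Cdk6, it was 1.04, and in the one below, which holds Ccnd1, it was 0.979. Across 5 ways of scaling, the ratio of Cdk4 ran from 1.05 to 1.36 and that of Cdk6 from 0.977 to 1.26, so the direction of Cdk6 depends on the scaling, as do those of Ccnd1 (0.820 to 1.06) and Ccnd2 (0.940 to 1.22).

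**Figure D2:**
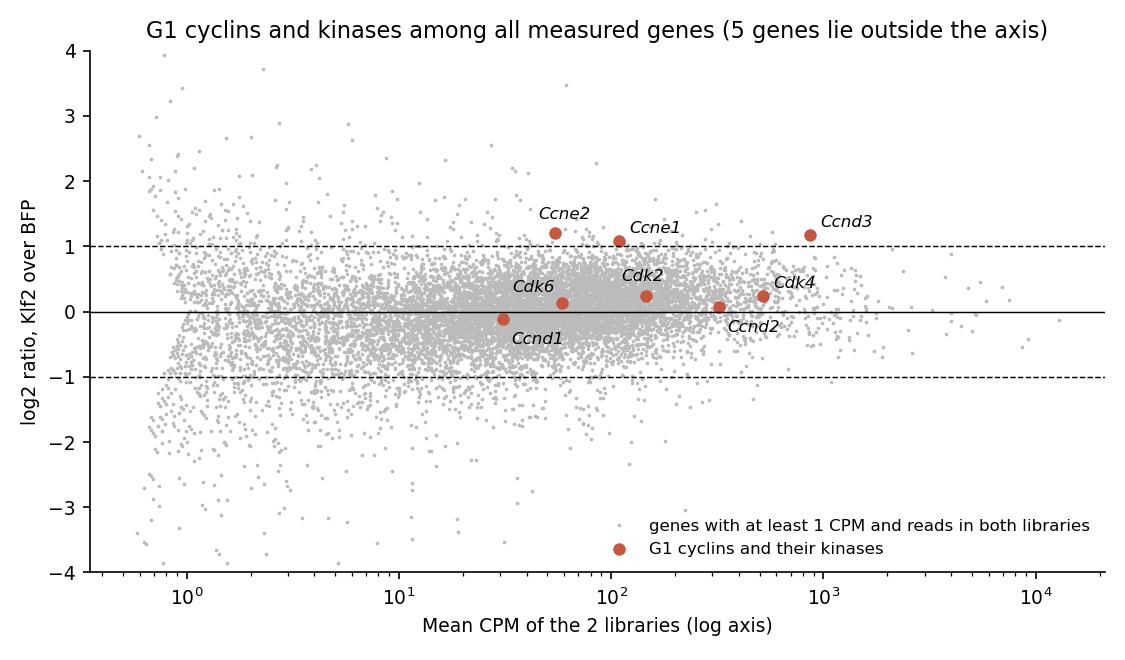
Mean CPM of the libraries (log axis) against the log2 ratio of Klf2 over BFP for 10850 genes, grey, with the 8 genes in red and dashed lines at 2-fold (5 genes lie beyond the axis). Ccnd3, Ccne1 and Ccne2 lie above the upper line at 1.17, 1.08 and 1.20, and the other 5 lie between -0.12 and 0.24.

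The order of the genes per length differed between the libraries. In BFP it ran Cdk4 (128 RPKM), Ccnd3 (75.4), Cdk2 (48.3), Ccnd2 (47.9), Ccne1 (22.9), Cdk6 (13.2), Ccne2 (8.24) and Ccnd1 (7.36), as means of the lanes. The lanes of Cdk2 and Ccnd2 overlapped there, as did those of Ccne2 and Ccnd1. In Klf2, Ccnd3 led with 159.6 RPKM, above Cdk4 at 143 RPKM, and Cdk2 followed at 53.6 RPKM. Ccnd2 (47.6 RPKM) and Ccne1 (45.6 RPKM) overlapped by lane, and Ccne2 at 17.8 RPKM stood above Cdk6 at 13.6 RPKM and Ccnd1 at 6.37 RPKM. Among all measured genes ranked by RPKM, Ccnd3 was at place 603 in BFP and 281 in Klf2, and Ccne2 at place 5459 and 3026. The level of Ccnd3 per length is set by the length of all its annotated exons, 6151 bases, over which reads were unevenly spread. Its deposited median coverage was 4 to 5 reads per base in the BFP lanes and 7 to 9 in Klf2, below the 14 to 17 and 20 to 21 of Cdk2, whose RPKM was lower. Cdk4, with 27 exons in its row, also had a median coverage near that of Cdk2, at 20 to 23 and 17 to 20 reads per base.

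Ratios of genes within a library do not depend on scaling between libraries. The 8 pairs given here were chosen after values were seen. Ccnd3 was 1.57 times Ccnd2 per length in BFP and 3.36 times in Klf2, a change of 2.13-fold (2.06 to 2.20). Against its kinase Cdk4, Ccnd3 went from 0.588 to 1.12, a change of 1.90-fold (1.85 to 1.96), and against Cdk6 from 5.74 to 11.8. Ccne1 over Cdk2 went from 0.474 to 0.851, a change of 1.79-fold (1.68 to 1.92), and Ccne2 over Cdk2 from 0.171 to 0.332, a change of 1.95-fold (1.79 to 2.12). The E cyclins thus shifted against their kinase by nearly the same factor. The ratio of Ccne2 to Ccne1 changed by 1.09-fold (0.992 to 1.19), an interval that includes 1. Cdk4 over Cdk6 changed by 1.08-fold (1.01 to 1.15), and Ccnd1 over Ccnd2 by 0.872-fold (0.793 to 0.958).

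In BFP, Ccnd3 held 57.7% of D cyclin reads per length, with Ccnd2 at 36.7% and Ccnd1 at 5.63%. In Klf2, Ccnd3 held 74.7%, Ccnd2 22.3% and Ccnd1 2.98%. By lane, the share of Ccnd3 was between 57.2% and 58.6% in BFP and between 74.3% and 75.4% in Klf2. The split of the E cyclins was alike in both libraries, with Ccne1 at 73.6% and 71.9%. Of the kinases, Cdk4 held 67.6% and 68.0%, Cdk2 25.5% in each and Cdk6 6.93% and 6.47%.

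**Figure D3:**
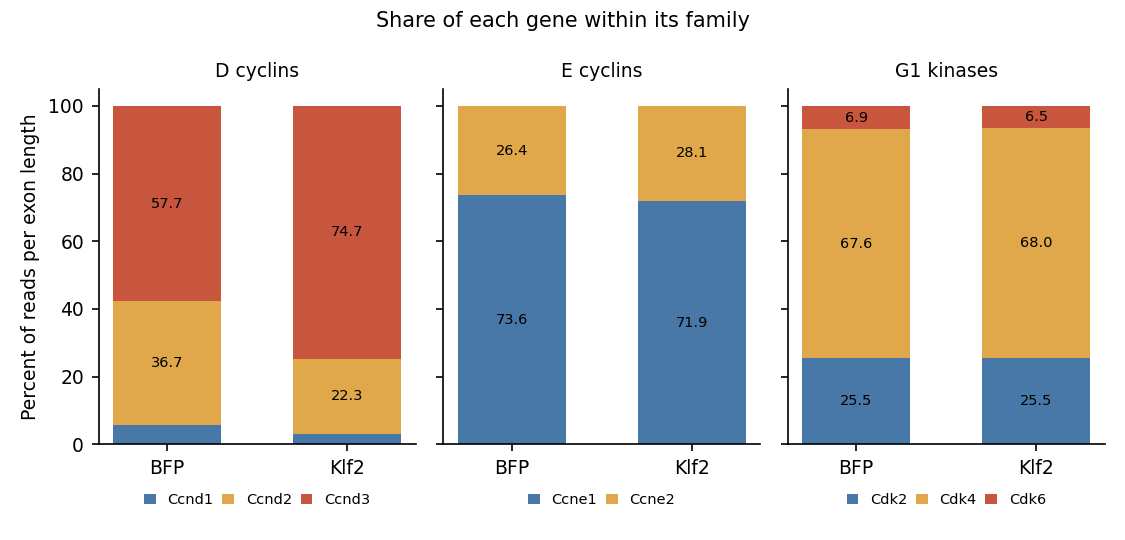
Share of each gene in its family, in percent of reads per exon length, for D cyclins, E cyclins and G1 kinases in the BFP and Klf2 libraries. Ccnd3 takes 57.7% of the D cyclin bar in BFP and 74.7% in Klf2, while the bars of the E cyclins and kinases differ by less than 2 percentage points.

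The 3 higher genes were also examined by class of read. On uniquely placed exon reads the ratios were 2.25 (2.21 to 2.30) for Ccnd3, 2.12 (2.01 to 2.23) for Ccne1 and 2.25 (2.06 to 2.47) for Ccne2, and 2.36% of all genes met the higher rule on these reads. The uniquely placed share of Ccnd3 reads was 81.7% in BFP and 81.6% in Klf2, and that of Ccne2 reads was 68.8% and 67.3%. RefSeq lists a pseudogene, Ccnd3-ps, on chromosome 4 (139344392 to 139346315, GRCm38.p6), and its row held 0 reads in both libraries. The rows of Ccne2 and Ints8 overlap by 5622 bases, and Ints8 had a ratio of 1.41 (1.33 to 1.51). Those of Ccnd3 and Bysl overlap by 361 bases, with a ratio of 1.32 (1.25 to 1.40) for Bysl. Those of Cdk4 and Tspan31 overlap by 604 bases, with a ratio of 0.744 (0.698 to 0.792) for Tspan31. Whether counting used strand is not given, so reads of such pairs may be mixed.

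Reads across exon junctions come from spliced RNA. On these, with TMM factors fitted to junction reads, the ratio was 2.26 (2.06 to 2.48) for Ccne1, 2.24 (1.999 to 2.52) for Ccne2 and 1.97 (1.87 to 2.09) for Ccnd3. With the scaling of exon reads, added after values were seen, the Ccnd3 ratio was 2.01 (1.90 to 2.13), so its side of the 2-fold limit turned on the scaling of these reads. Junction reads made up 11.6% (11.1 to 12.1) of Ccnd3 exon reads in BFP and 10.4% (10.05 to 10.7) in Klf2, intervals that do not overlap. Over all genes the share of junction reads was 21.9% in BFP and 22.4% in Klf2. Between 7 and 10 of the 20 Ccnd3 transcripts were listed as detected per BFP lane, and between 8 and 10 per Klf2 lane. Junction reads met the higher rule in 2.38% of all genes.

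Gene reads outside annotated exons, which in poly(A) RNA come mostly from introns of unspliced or partly spliced transcripts, gave another picture for Ccnd3 and Cdk6. Ccnd3 had between 190 and 229 such reads per BFP lane and between 547 and 570 per Klf2 lane, a ratio of 2.79 (2.58 to 3.03). Its reads over intron-exon borders numbered 17 in BFP and 69 in Klf2, a ratio of 4.22 (2.46 to 7.66). Cdk6 had between 122 and 150 reads outside exons per BFP lane and between 257 and 295 per Klf2 lane, a ratio of 2.08 (1.87 to 2.31), while its exon reads had a ratio of 1.10. Reads outside exons were 23.6% (21.9 to 25.4) of Cdk6 gene reads in BFP and 37.0% (35.2 to 38.7) in Klf2, against 15.2% and 15.1% over all genes. Its reads over intron-exon borders were 9 and 13, with an interval of the ratio from 0.594 to 3.98. Of 2241 genes whose exon ratio lay within 10% of 1 and that had at least 1 CPM outside exons, 26 (1.16%) were at least 2-fold higher outside exons with an interval above 1, and Cdk6 is one of them. This comparison was chosen after the values of Cdk6 were seen. Of all 10398 genes with 1 CPM outside exons, 3.24% were 2-fold higher there. The cause of the excess of Cdk6 reads outside exons was not tested. GENCODE M21 places Cdk6 at 3341485 to 3531008, past both ends of the deposited row, and reads there were not counted in that row.

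Outside exons the E cyclins had ratios of 1.67 (1.41 to 1.97) for Ccne1 and 2.03 (1.73 to 2.38) for Ccne2. Border reads numbered 46 and 32 for Ccne1, a ratio of 0.724 (0.446 to 1.16), and 24 and 61 for Ccne2, a ratio of 2.64 (1.62 to 4.44). Outside exons Cdk2 had 1.11 (0.995 to 1.23) and Ccnd2 0.947 (0.833 to 1.08). Ccnd1 and Cdk4 had at most 88 such reads in a library and intervals that included 1.

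**Figure D4:**
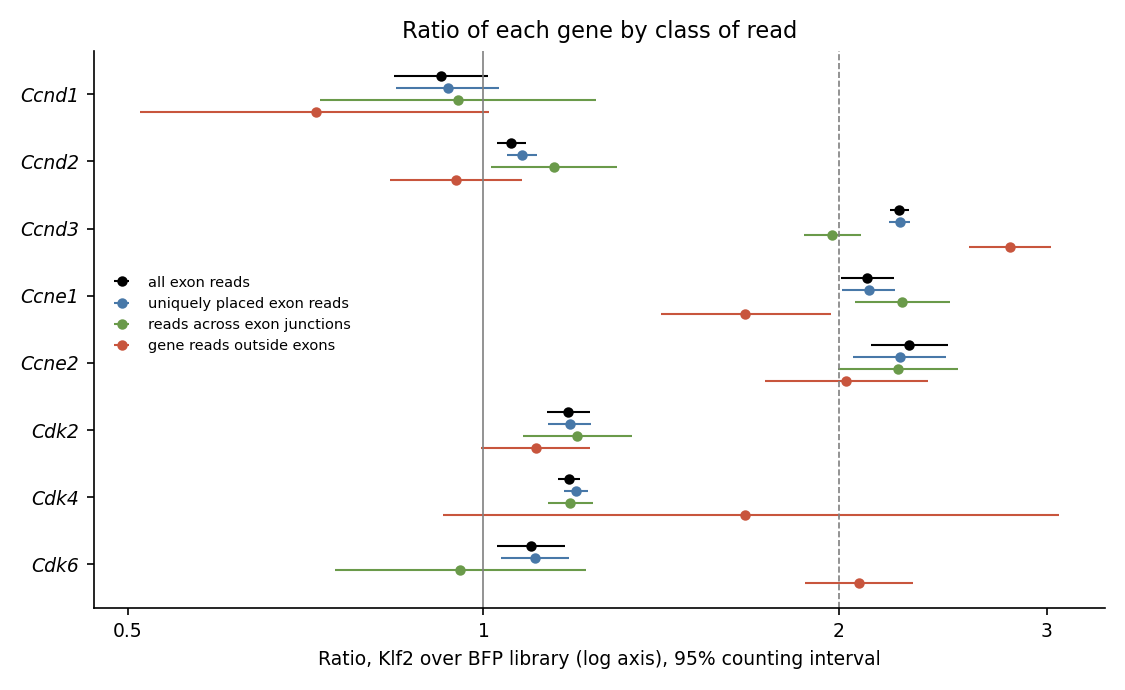
Ratio of the Klf2 over the BFP library (log axis) with its 95% counting interval for each gene, from all exon reads, uniquely placed exon reads, reads across exon junctions and gene reads outside exons. Unique and junction reads carry their own TMM factors, solid and dashed lines mark 1 and 2, and the points of Cdk6 run from 0.956 on junctions to 2.08 outside exons.

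Promoters are shown for Ccnd3 and Ccne1, which were higher together, and for Cdk2, whose exon reads were not past the rule, so that their sequence can be set side by side. RefSeq (GRCm38.p6) held promoters for 5 of the 8 genes, and those of Ccnd1, Ccnd2 and Ccne2 are not shown. Each window is the 250 bases before an annotated start. Ccnd3 has an upstream start, at chr17:47504801-47505050 on the plus strand, and a downstream one, at chr17:47593217-47593466. Ccne1 is at chr7:38107491-38107740 and Cdk2 at chr10:128705052-128705301, both on the minus strand. Capitals mark matches, on either strand, to 3 motifs: TTTNNCGC, the E2F type, CCNCNCCC, the CACCC type bound by Klf factors, and GGGCGG, the GC box bound by Sp and Klf factors.
Ccnd3 upstream start: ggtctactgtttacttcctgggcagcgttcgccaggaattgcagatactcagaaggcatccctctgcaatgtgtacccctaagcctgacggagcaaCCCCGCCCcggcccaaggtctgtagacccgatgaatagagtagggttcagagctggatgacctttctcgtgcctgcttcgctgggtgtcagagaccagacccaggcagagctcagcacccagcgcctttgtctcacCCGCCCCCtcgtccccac
Ccnd3 downstream start: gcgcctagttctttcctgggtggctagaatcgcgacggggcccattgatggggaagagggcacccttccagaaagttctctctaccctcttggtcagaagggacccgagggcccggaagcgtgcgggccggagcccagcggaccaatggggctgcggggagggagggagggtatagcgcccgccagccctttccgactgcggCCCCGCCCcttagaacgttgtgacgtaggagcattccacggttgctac
Ccne1: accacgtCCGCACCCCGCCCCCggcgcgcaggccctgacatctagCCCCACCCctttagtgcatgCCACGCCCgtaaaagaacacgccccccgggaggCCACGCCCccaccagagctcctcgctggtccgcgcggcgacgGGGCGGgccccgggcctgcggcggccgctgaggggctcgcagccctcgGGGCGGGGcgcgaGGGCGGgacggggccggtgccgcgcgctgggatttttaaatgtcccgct
Cdk2: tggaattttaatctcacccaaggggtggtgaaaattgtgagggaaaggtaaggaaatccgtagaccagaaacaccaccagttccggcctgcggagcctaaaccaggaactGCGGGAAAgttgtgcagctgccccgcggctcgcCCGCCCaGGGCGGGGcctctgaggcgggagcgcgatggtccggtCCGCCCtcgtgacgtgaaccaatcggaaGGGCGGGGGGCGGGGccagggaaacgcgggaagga

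The CACCC type was matched 2 times before the upstream Ccnd3 start, 1 time before the downstream one, 7 times in Ccne1 and 4 times in Cdk2. The GC box was matched 2, 1, 4 and 5 times in the same order, and many of these letters are shared with CACCC matches. Of 32851 RefSeq windows of this length, 45.9% held the CACCC type and 32.7% the GC box. The E2F type, held by 4.28% of windows, was matched 1 time in Cdk2 and 0 times in the Ccnd3 and Ccne1 windows. Cdk6 also held 1 E2F-type match and Cdk4 none. Cdk4 held 4 CACCC-type matches and 1 GC box, and Cdk6 held 2 and 0. A match describes letters, not binding, and both types of gene, past the rule and not, held matches.

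The lists of other cell cycle genes are described by counts and medians. Inhibitors of these kinases lay on both sides. Of 6 measured CDK inhibitor genes of 7, 1 was at least 2-fold lower and none 2-fold higher. Their median difference in log2(CPM + 1) was -0.18, against -0.01 over all genes, and it turned to 0.019 when libraries were scaled on the lowest of the 5 expression groups, where none was 2-fold lower. Cdkn2b, which encodes the CDK4 and CDK6 inhibitor p15, was the lower one, at 4.55 against 9.81 CPM. Cdkn1b, the gene of p27, an inhibitor of cyclin E and CDK2, was at 36.4 against 60.97 CPM, and Cdkn1a, the gene of p21, at 129.6 against 164 CPM. Cdkn2d, which encodes p19 of the INK4 family, was at 34.9 against 25.8 CPM.

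RB-family and E2F genes lay on both sides. Of 13 genes, E2f2 was at least 2-fold higher (228 against 109 CPM) and none was 2-fold lower, with 9 intervals above 1, 3 below and a median difference of 0.35. With total exon reads as scaling, E2f2 no longer passed. The atypical repressor E2f8 was at 279 against 159 CPM, and Rbl1, which encodes the pocket protein p107, at 119 against 71.9 CPM. Tfdp2, a dimerisation partner of E2F factors, was at 31.9 against 49.9 CPM. Among 20 target genes of RB and E2F, 19 had an interval above 1, 3 were at least 2-fold higher and none 2-fold lower, with a median of 0.72. Without lane 2 or lane 3, 2 of them passed, and with scaling to total exon reads 1 did. Orc1, of the origin recognition complex, was at 25.3 against 10.5 CPM with 34.3% of its BFP reads uniquely placed, Cdc6, a licensing factor, at 154 against 74.9 CPM, and Uhrf1, of maintenance DNA methylation, at 468 against 234 CPM. Mybl2, a cell cycle transcription factor, was at 175 against 89.02 CPM and did not pass the rule.

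Of 5 measured genes of 7 in the S and M phase list, every interval lay above 1 and the median was 0.94. The kinase gene Cdk1 passed the rule at 319 against 158 CPM, and none of the cyclins did. Ccna2, the cyclin A2 gene, was at 525 against 267 CPM, Ccnf at 154 against 79.9 CPM and Ccnb1 at 141 against 76.9 CPM. None of the 5 genes passed without lane 2 or with scaling to total exon reads. Among 11 genes of CDK activation by phosphorylation the median was 0.58, and 9 intervals lay above 1. Cdc25a, the phosphatase that activates CDK2, passed the rule at 188 against 90.3 CPM, though not with scaling to total exon reads. Cdkn3, a CDK phosphatase, was at 14.4 against 7.85 CPM, Cdc25c at 20.98 against 11.8 CPM and the inhibitory kinase gene Wee1 at 32.8 against 21.03 CPM.

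**Figure D5:**
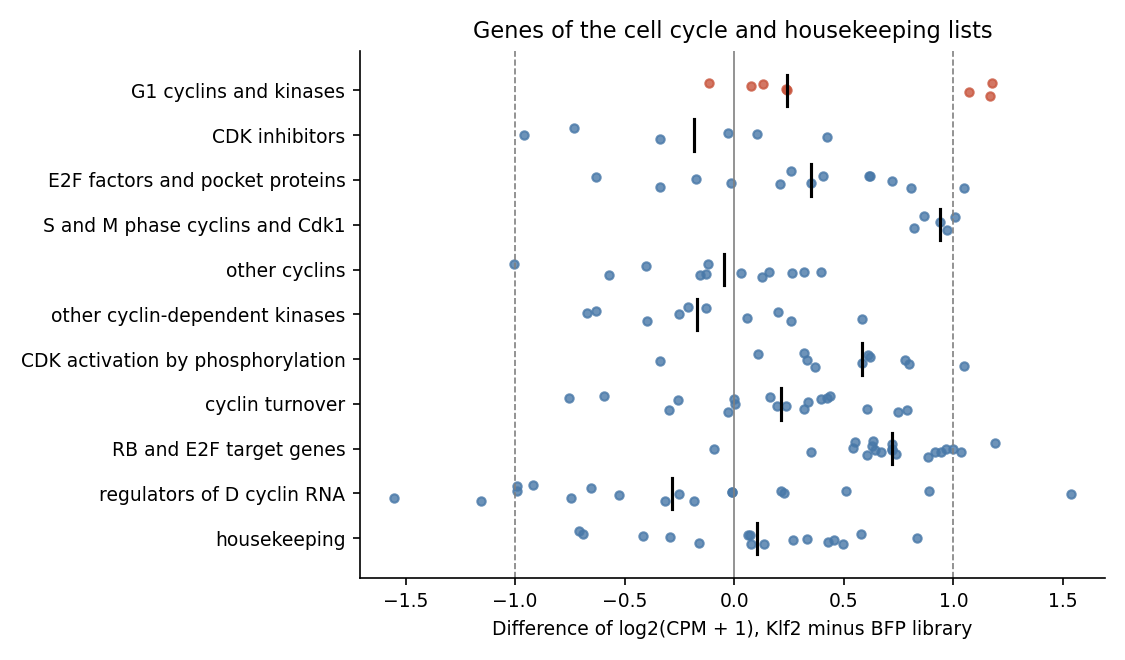
Difference of log2(CPM + 1), Klf2 minus BFP, for each measured gene of 11 lists, with black bars at the medians. Dashed lines mark a difference of 1 in either direction. Because of the added 1 CPM, genes past the 2-fold rule can lie inside these lines, such as Bcl6 at -0.991. The G1 cyclins and kinases split into 3 genes past 1 and 5 genes between -0.12 and 0.24, and the highest median, 0.94, is that of the S and M phase list.

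Genes that turn over G1 cyclins and genes listed as regulators of D cyclin RNA each lay on both sides. The first list leaned higher and the second lower in the Klf2 library, to a degree that depends on the scaling. Of 18 turnover genes, 10 had an interval above 1 and 3 below. Their median was 0.22, or 0.036 with scaling on the highest of the 5 expression groups. Skp2, the F-box protein that targets p27, was at 109 against 62.7 CPM, and Cks2, with 8.85% of its reads uniquely placed in BFP, at 169 against 100.3 CPM. Fbxl2 passed the rule on 30 against 15 reads, but not without lane 1, 3 or 4, and Fbxl8 was at 2.51 against 4.92 CPM. Of 18 regulators of D cyclin RNA, 5 had an interval above 1 and 11 below. Their median was -0.28, or -0.082 with scaling on the lowest of the 5 expression groups. Spib, an ETS factor of B cells, passed the rule as higher (62.2 against 20.8 CPM). Jun (11.4 against 35.4 CPM), Fos (10.8 against 25.3 CPM) and Bcl6, a repressor of Ccnd2 (0.636 against 2.25 CPM), passed as lower. Bcl6 did so on only 19 against 70 reads, with its Klf2 level under 1 CPM. With total exon reads as scaling, 5 of the list passed as lower. Among 16 housekeeping genes none passed, though 11 had an interval above 1 and 5 below, so an interval apart from 1 was found here too. Their median was 0.10, or -0.062 with scaling on the highest of the 5 expression groups. Among those with the largest differences, Ppia was at 1431 against 803 CPM, with 3.20% of its BFP reads uniquely placed, and Pgk1 at 388 against 634 CPM, with 2.01%.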

How the data were processed

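Poly(A) RNA of 1 BFP and 1 Klf2 library, each in 4 lanes, was sequenced. The submitters' processing notes name CASAVA 1.8.2 and mm10; what aligned and counted the reads, with which annotation and strand setting, is not given in the sources used here. Per the file headers, the authors' counts per lane are exon, uniquely placed exon, gene, junction and intron-exon border reads. The deposited RPKM was recomputed from deposited columns to within 0.0258. The deposited median coverage, a signal per gene, is in reads per base. The authors' deposited fold, a signed score of mean RPKM, was 2.115 for Ccnd3, 1.989 for Ccne1 and 2.158 for Ccne2 in the authors' deposited table.

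Lanes were summed: their chi-square per degree of freedom was 1.28 (BFP) and 1.26 (Klf2) on all exon reads and 1.03 in both when only unique placements were used, under a limit of 1.5. CPM used TMM factors of 1.03 and 0.969 (edgeR 4.0.16, R 4.3.3) on all exon reads, the main values. Reads outside exons are gene minus exon reads, on the same scaling; unique and junction reads had TMM factors of their own. A gene passed the rule at a ratio of at least 2 in either direction with the exact Clopper-Pearson interval, conditional on its summed reads, excluding 1, at 1 CPM or more in either library. Intervals of shares are Clopper-Pearson, and those of changes of a ratio between genes come from the counting errors on the log scale (scipy 1.17.1). Differences are on the log2(CPM + 1) scale. The limit that 0 reads allow, 3 reads, equals 0.0996 CPM (BFP) or 0.0973 CPM (Klf2). Reads carry no molecular identifiers, so intervals cover counting error only. The rule was tested on simulated data that hold counting noise only, so that test cannot speak to variation between libraries.

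The genes and lists were chosen with earlier results of these data known. Named genes are the 8, Klf2, and up to 4 of each list with the largest difference, those past the rule first; marker and overlapping genes were named after their values were seen, and a few genes that the rule names are not reported here. Alternatives were other read classes, scalings, floors and folds and each lane left out; reads outside exons, and junction reads on the exon scaling, were added after seeing the data.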

Additional observations from a re-analysis of the deposited data

How the results depend on the processing

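Ccnd3 stayed past the 2-fold rule in all settings except junction reads with their own TMM factors (1.97; 2.01 with the scaling of exon reads), and Ccne2 in all settings; Ccne1 did not with total exon reads (1.99), scaling on the highest of 5 expression groups (1.88), the ratio of mean deposited RPKM (1.99) or reads outside exons (1.67). Cdk6 passed only on reads outside exons (2.08). Leaving out each lane gave 2.23 to 2.27 for Ccnd3, 2.05 to 2.19 for Ccne1 and 2.20 to 2.35 for Ccne2. Scaling on the lowest or highest expression group, whose median log2 ratios were -0.20 and 0.17, shifts all genes: higher and lower genes numbered 557 and 412 on the lowest, 169 and 901 on the highest, 205 and 757 with total reads, 128 and 559 on RPKM, and 266 and 615 in the main values. They were 432 and 867 with no floor, 121 and 277 with a floor of 10 CPM, and 1112 and 1505 at 1.5-fold. On the lowest group, median differences turned to 0.019 for CDK inhibitors, 0.16 for other cyclins and 0.032 for other CDKs; on the highest, that of housekeeping genes turned to -0.062. The Ccnd3 share of D cyclin reads was 55.4% and 72.5% on uniquely placed reads and 60.6% and 76.9% without length scaling, in BFP and Klf2. No paired analysis was possible because lanes of 1 library are not replicates and each group holds 1 library.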

Other observations

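Cyclins and CDKs outside the core cycle, many of which serve transcription, showed no common direction. Of 12 other cyclin genes, 5 had an interval above 1 and 5 below, with a median difference of -0.05, which turned to 0.16 with scaling on the lowest of 5 expression groups. Ccng2, an unconventional cyclin gene linked to arrest, was the only one past the 2-fold rule, at 37.7 against 76.8 CPM in Klf2 against BFP, though not with that scaling. Ccnl2, of splicing, was at 113 against 169 CPM, Ccni at 228 against 302 CPM and Ccnc, of the Mediator complex, at 45.6 against 34.4 CPM. Of 10 measured other CDK genes, none passed the rule, 3 had an interval above 1 and 6 below, and their median of -0.17 turned to 0.032 with that scaling. Cdk5 was at 19.9 against 32.4 CPM, Cdk19 at 108 against 168 CPM and Cdk10 at 6.46 against 8.84 CPM. Cdk7, the kinase that activates other CDKs, was at 63.5 against 42.03 CPM.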
